A study of Mus musculus with 53 samples.

Results

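E2A-deficient T-cell tumours of the mouse were compared with tumours of other lymphoma-prone genetic backgrounds. The series holds 53 arrays, each of 1 sample of T-cell lymphoblast tumour, from which total RNA had been extracted with Trizol and labelled as biotin cRNA. The 4 arrays whose genotype label is E2A knock out (replicates 1 and 2) or rag E2A knock out (replicates 3 and 4) formed 1 group. They were set against the 34 arrays of 10 backgrounds whose genotype names neither TLX1 nor p53, with the 10 background means weighted equally. The remaining 15 arrays were left out. In both E2A groups the E2A gene Tcf3 is disrupted, and the label of the rag E2A knock out arrays also names a Rag knock out, without saying which Rag gene. Neither Rag1 nor Rag2 passed the test as lower in those arrays than in the E2A knock out arrays (values below), so these data do not show that deletion, and whether the probe sets lie within a deleted part was not examined. The reference backgrounds were Cdkn2a knock out- Retroviral insertional mutagenesis (9 arrays), beta-catenin transgenic, Ikaros Plastic, LMO1 transgenic, Nup98HoxD13 transgenic, olig1-LMO1 double transgenic, Tal1-LMO2 double transgenic and ThPOK transgenic (3 arrays each), and Pokemon transgenic and Tal1 transgenic (2 arrays each). The titles of the olig1-LMO1 double transgenic arrays name olig2 instead of olig1, and the genotype label was used here. All groups carry the strain label C57BL/6, and none was given a treatment in the labels. The promoters that drive the transgenes, the ages of the mice and whether samples of a group come from separate animals are not given in the sources used here. The spread behind the p-values is therefore that of the samples as labelled, part of which may be technical.

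E proteins are basic helix-loop-helix transcription factors that bind short E-box sequences as pairs. In the thymus, Tcf3 (which encodes E12 and E47) and Tcf12 (HEB) drive T-lineage genes and the stages at which the T-cell receptor is assembled and tested, and Id proteins block them by forming pairs that cannot bind DNA. TAL1 and LMO proteins, the transgenes of several reference backgrounds, pair with E proteins or bridge them to other factors, and mice that lack E2A are known to develop T-cell lymphoma. Notch receptors, cleaved on ligand binding to release an intracellular activator, drive the same early T-cell stages and are a known target of mutation in T-cell leukaemia.

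The arrays were first checked for their cell type and quality. Of 9 T-lymphoblast markers, 7 had a probe set of their own. Cd3e, Cd3d, Cd3g, Thy1 and Bcl11b lay at or above the 96.0th percentile of each E2A-deficient array, while Cd2 ranged between 9.05 and 12.38 and Cd5 between 7.48 and 10.31 (log2 intensity). The log2 array median was 8.84 ± 0.04 (SD, n = 4) in the E2A-deficient arrays and 8.95 ± 0.12 (n = 34) in the reference arrays, and the beta-actin signal at the 3' end exceeded that at the 5' end by a log2 value of 0.38 ± 0.13 against 0.25 ± 0.21. Neither these nor the GAPDH ratio and the 18S control passed a two-sided exact permutation test (adjusted p = 0.193 to 0.913 over 4 tests).

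The hybridization controls, bacterial and phage transcripts that carry no mouse gene and are read by 18 probe sets, divided the arrays in a way that touches every result below. Their mean log2 level was 12.27 to 12.73 in the 4 E2A-deficient arrays and 12.16 to 12.77 in the 5 arrays of the Tal1 transgenic and Tal1-LMO2 double transgenic backgrounds. It was 9.19 to 11.87 in the other 29 arrays, so these 9 arrays were the highest and did not overlap with the rest. Against the other 8 backgrounds, array set and genotype therefore cannot be told apart, and the main differences the results turn on are given below with the same difference taken against the 2 Tal1 backgrounds alone (called here the difference within the array set). That division was found after the values were seen. The Tal1 transgenes themselves act on E proteins, so the 2 comparisons also differ in what they set E2A deficiency against.

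The targeted gene came first, as a check of the labels. Tcf3 read 9.53 and 10.05 in the E2A knock out arrays and 10.04 and 9.79 in the rag E2A knock out arrays, against 9.69 to 11.51 (median 10.76) in the reference arrays (log2 intensity). All 4 arrays lay below the reference median, and 1 reference array, of the Ikaros Plastic background, lay within their range. The mean was 9.85 ± 0.24 (SD, n = 4) in E2A-deficient tumours and 10.76 over the background means, a log2 difference of -0.91 ± 0.16 (SE; limma adjusted p = 0.00025). The other probe sets of the gene differed more, by -1.84 and -1.71, and on both of them the 4 E2A-deficient arrays lay below all 34 reference arrays. The difference within the array set was -1.06 ± 0.21 (adjusted p = 0.0160 with the spread of all 38 arrays, 0.0892 in a fit of the 9 arrays), and the 4 arrays lay below all 5 Tal1 arrays. Which part of the transcript each probe set reads relative to the deletion was not examined.

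**Figure D1:**
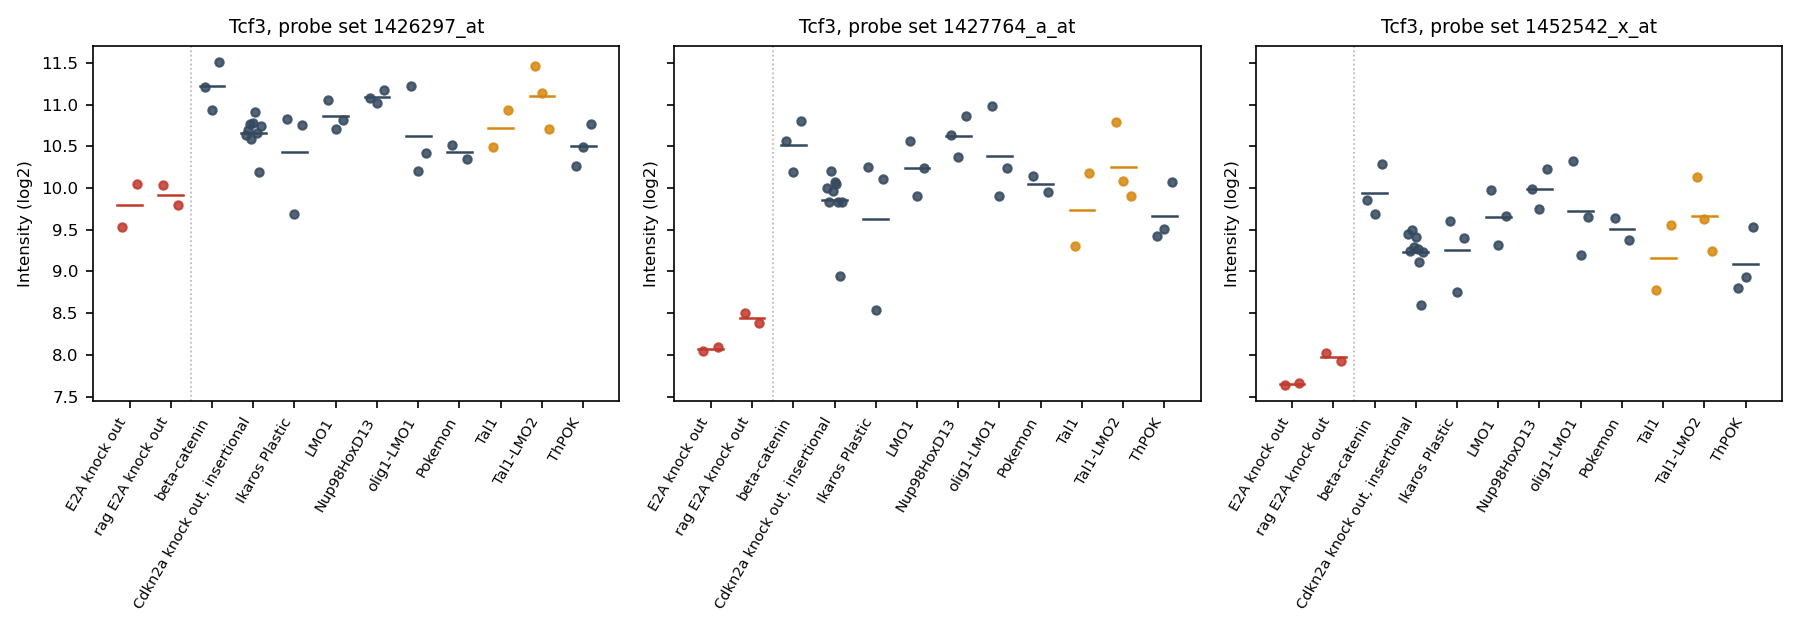
Log2 intensity of the 3 Tcf3 probe sets on each array (points) with the group mean (line), by background. E2A-deficient groups are in red on the left and the Tal1 backgrounds in orange. On 2 probe sets the 4 E2A-deficient arrays lie below all 34 reference arrays, and on the probe set of highest mean 1 Ikaros Plastic array reaches 9.69.

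The partners and inhibitors of E2A did not move as one. Of 11 measured genes in the list of E proteins, Id inhibitors and partners, none was higher and 4 were lower (Tcf3, Lmo2, Lmo1 and Tcf4), where 12.1% of all genes tested were lower in this comparison. That count includes Tcf3, the gene disrupted in this group, and Lmo1, a transgene of some reference backgrounds. The median difference of the list was -0.09, against -0.01 over all genes. Tcf12, the other main thymic E protein, read 12.36, 12.54, 12.38 and 12.30 in the E2A-deficient arrays, against a reference median of 12.29, and did not pass the test (0.07 ± 0.19, adjusted p = 0.819). Tcf4, another E protein gene, read 10.28, 9.57, 9.83 and 9.14 and was lower by a log2 difference of -0.44 ± 0.13 (adjusted p = 0.0216). Its 5 other probe sets gave -0.86, -0.71, -0.62, -0.45 and 0.04. On the probe set with -0.86, the 4 arrays were uneven: they read 9.26, 6.91, 8.56 and 6.93, against 7.20 to 9.71 in the reference. Lmo2, an adaptor that joins E proteins and TAL1 to GATA factors, was between 7.75 and 7.95 in the E2A-deficient arrays, against 7.77 to 10.04 in the reference (-0.89 ± 0.17, adjusted p = 0.000492). The difference of Lmo1 (-0.68, adjusted p = 0.0336) is set against reference backgrounds that include its own transgene, since it averaged 12.95 in olig1-LMO1 double transgenic tumours and 8.45 in E2A-deficient tumours. Of these 4 calls, that of Tcf3 also passed within the array set, where Lmo2 differed by -0.37 ± 0.21, Tcf4 by -0.29 ± 0.17 and Lmo1 by 0.50 ± 0.29, which turns its direction. Without rag E2A knock out replicate 4, the list held 2 lower genes, and 484 of all 8325 genes were lower, against 1006 in the main fit.

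Id genes were spread widely among the 4 E2A-deficient tumours. Id3, a target of pre-T-cell receptor signals that restrains E proteins, read 11.29 and 9.32 in the E2A knock out arrays and 7.72 and 7.79 in the rag E2A knock out arrays, against 7.78 to 11.68 (median 10.27) in the reference. Both rag E2A knock out arrays were thus at the low end and E2A knock out replicate 1 was near the top. The difference from the reference (-1.01 ± 0.51, adjusted p = 0.162) and that of rag E2A knock out minus E2A knock out (-2.55, adjusted p = 0.436) did not pass the test. Id2, which marks innate-like lymphocytes, read 9.63, 11.34, 11.22 and 9.66, and Id1 read 9.69, 8.26, 8.44 and 9.77. Neither passed the test (adjusted p = 0.795 and 0.813).

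Across all genes, 645 were higher and 1006 lower in E2A-deficient tumours among 8325 tested (limma, adjusted p under 0.05). These are 7.75% and 12.1% of the genes, 19.8% in all, and 39 (0.468%) and 92 (1.11%) of them also differed by at least 2-fold. With each array centred on its own median, which moves the median of all genes to 0.08, the counts were 1178 and 625, so the share of calls that were higher was 65.3% there and 39.1% without centring. Quantile normalization gave 614 and 675, a share of 47.6%. The model takes the 10 backgrounds as given: with genotype as a random block or genotype means as the units no gene passed (limma), although 273 and 268 were higher and 371 and 294 lower at an unadjusted p under 0.05. Within the array set, 3 genes were higher (0.036%) and 11 lower (0.132%) with the spread of all 38 arrays, and 1 (0.012%) and 10 (0.12%) in a fit of the 9 arrays alone. With the level of the hybridization controls as a covariate, 828 genes (9.95%) were higher and 1187 (14.3%) lower, of which 342 and 692 were among the main calls.

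The largest rise among the named genes was that of H2-T3, which encodes a thymus leukaemia antigen, a nonclassical class I molecule that thymocytes display in some inbred strains and that is known from mouse T-cell leukaemias. It read 12.74 and 12.28 in the E2A knock out arrays and 12.42 and 12.83 in the rag E2A knock out arrays, against 7.37 to 12.84 (median 8.57) in the reference arrays. The 4 E2A-deficient arrays were uniformly high, and 5 reference arrays exceeded the lowest of them. The mean was 12.57 ± 0.26 (SD, n = 4), against 9.49 over the background means, a log2 difference of 3.08 ± 0.64 (adjusted p = 0.00129), and the other probe set gave 3.80. By background, Tal1-LMO2 double transgenic tumours (12.38 ± 0.34, SD, n = 3) and Tal1 transgenic tumours (11.79 ± 1.49, n = 2) came next and overlapped with the E2A-deficient tumours. Nup98HoxD13 transgenic (10.57 ± 2.65, n = 3) and Cdkn2a knock out (9.33 ± 1.66, n = 9) tumours spanned wide ranges, from 7.53 to 12.38 and from 7.83 to 12.50. Levels in beta-catenin transgenic (7.88 ± 0.10, n = 3) and Ikaros Plastic (7.85 ± 0.07, n = 3) tumours were the lowest and did not differ beyond their spread. Within the array set the difference was 0.48 ± 0.82 and did not pass the test (adjusted p = 0.995). H2-T18, a near-identical relative whose probe set may also bind H2-T3 transcripts, rose by 1.66 ± 0.34 (adjusted p = 0.00117), with 0.43 ± 0.44 within the array set. Of 12 measured class I presentation genes, a list without H2-T18, 1 was called, H2-T3 itself, beside 7.75% of all genes called higher. The median difference of these 12 genes was 0.20, against -0.01 over all genes, and 2 of the 12 differences lay below 0. H2-K1 (0.32), H2-D1 (0.30) and B2m (0.08) did not pass the test. Outside these 12 genes, the probe set of H2-Bl differed by 1.26 ± 0.25 and that of H2-T24 by -0.27 ± 0.08.

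Ifi202b, an interferon-inducible gene of the Ifi200 family whose level is known to differ between inbred strains, was likewise high in the Tal1 backgrounds. It read 11.50 and 10.55 in the E2A knock out arrays and 12.04 and 11.19 in the rag E2A knock out arrays, against 7.03 to 12.04 (median 7.81) in the reference, a log2 difference of 2.82 ± 0.53 (adjusted p = 0.0005). Tal1-LMO2 double transgenic (11.03 ± 0.22, n = 3) and Tal1 transgenic (10.60 ± 2.01, n = 2) tumours had the highest background means, and within the array set the difference was 0.51 ± 0.68 (adjusted p = 0.990). Mndal, another gene of the Ifi200 family, was near 7 in 3 of the E2A-deficient arrays (6.94, 7.16 and 7.07) and at 10.79 in E2A knock out replicate 1. It was also low in Tal1-LMO2 double transgenic (6.98) and Tal1 transgenic (7.35) tumours and in Cdkn2a knock out tumours (7.37), while LMO1 transgenic tumours averaged 12.29. Of 15 interferon-stimulated genes, 2 (Ifit3 and Rsad2) were lower and none was higher, beside 12.1% and 7.75% of all genes.

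Aldh1b1, which encodes a mitochondrial aldehyde dehydrogenase, had another order of backgrounds. Its level was 11.15 and 11.78 in the E2A knock out arrays and 11.37 and 12.07 in the rag E2A knock out arrays, against 7.22 to 11.76 (median 8.14) in the reference, a log2 difference of 2.22 ± 0.47 (adjusted p = 0.00132). Pokemon transgenic tumours were as high (11.65 ± 0.13, n = 2), whereas all 9 Cdkn2a knock out arrays lay at or below 7.40. Against the Tal1 backgrounds alone it was 2.73 ± 0.59 higher (adjusted p = 0.0453 with the spread of 38 arrays, 0.273 in the 9 arrays), and the 4 arrays lay above all 5 Tal1 arrays. Scara3, a scavenger receptor of class A, read 11.42, 9.79, 10.67 and 10.83, against 7.24 to 11.54 (median 7.77), and rose by 2.06 ± 0.53 (adjusted p = 0.00741), with 0.80 ± 0.67 within the array set.

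**Figure D2:**
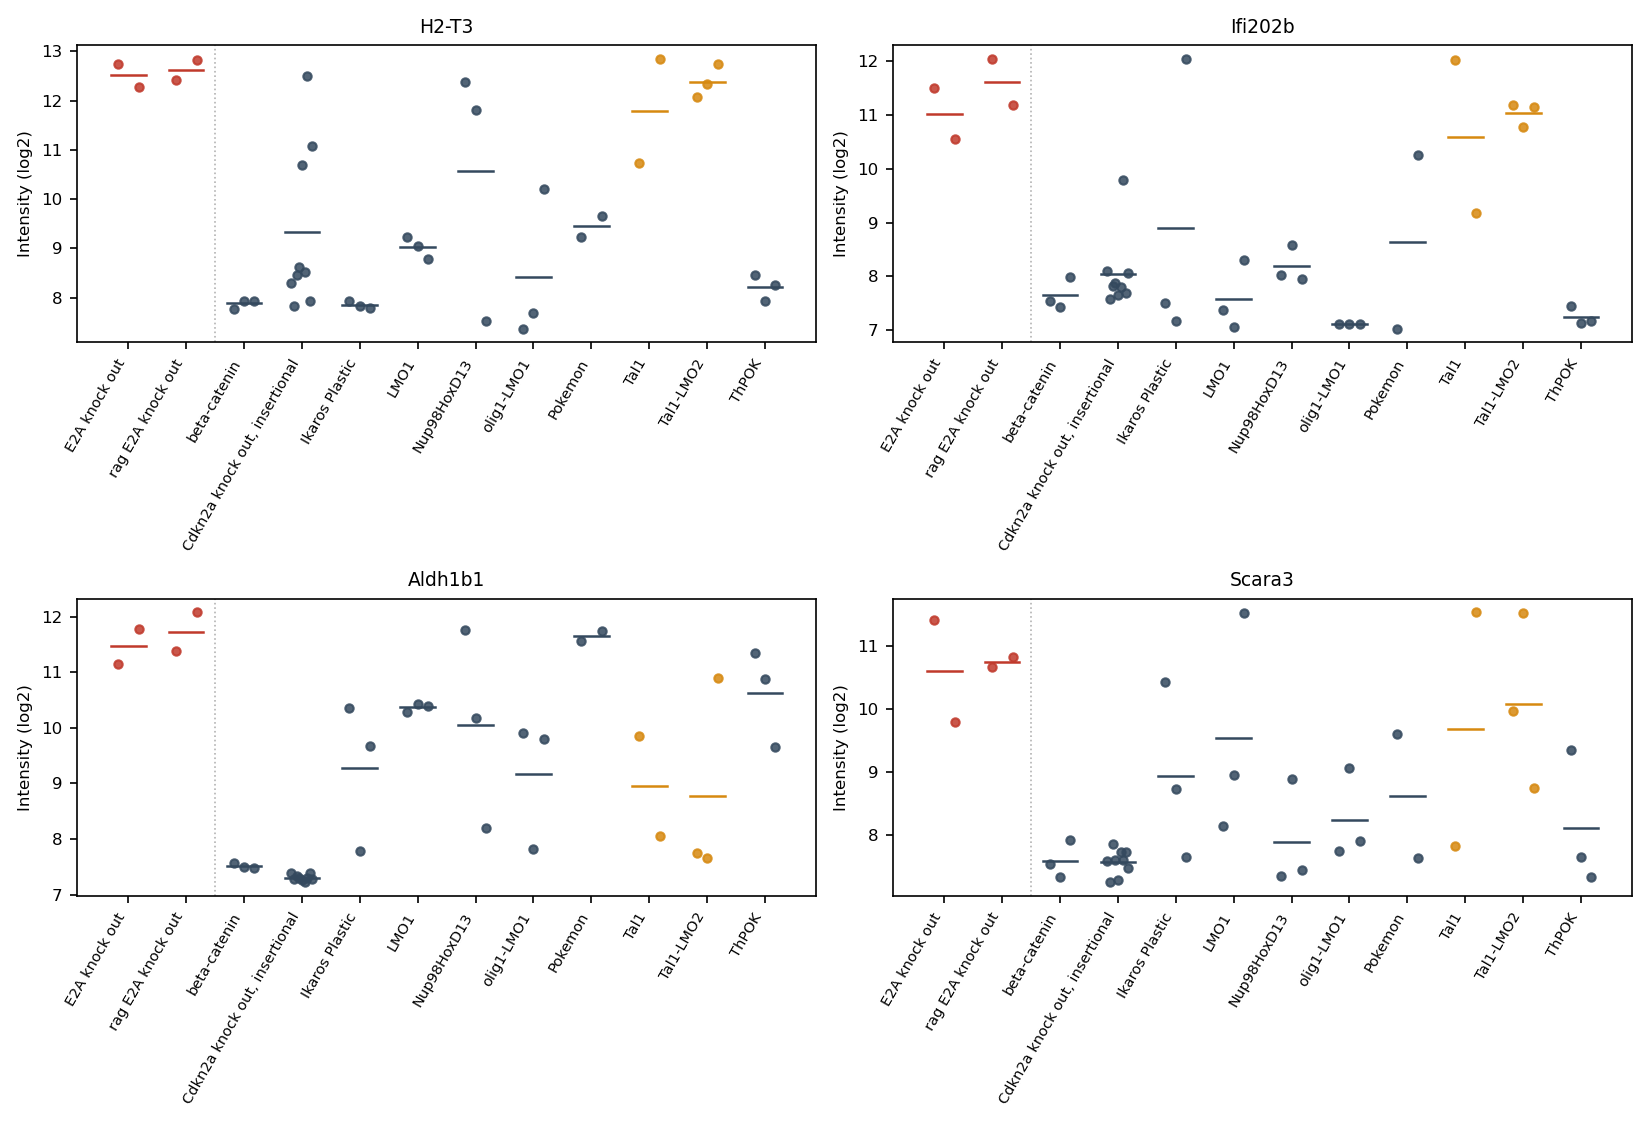
Log2 intensity of H2-T3, Ifi202b, Aldh1b1 and Scara3 on each array (points) with the group mean (line), E2A-deficient groups in red on the left and Tal1 backgrounds in orange. For H2-T3 and Ifi202b the orange groups overlap with the red ones, and for Aldh1b1 all 4 E2A-deficient arrays lie above all 5 Tal1 arrays.

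Further named genes shared this direction, with between 5 and 11 of the 34 reference arrays above the lowest E2A-deficient array. Fbp1, which encodes the gluconeogenic enzyme fructose bisphosphatase, read 9.97, 11.24, 11.79 and 10.01, against a reference median of 8.04, and rose by 1.92 ± 0.39 (adjusted p = 0.000969). The tetraspanin gene Tspan9 (9.85, 11.35, 12.26 and 10.62, reference median 9.03) rose by 1.79 ± 0.38. Rises also passed the test for Ddc, which encodes aromatic amino acid decarboxylase (1.71), Spsb4, an adaptor of ubiquitin ligases (1.60), Hsd17b11, a hydroxysteroid dehydrogenase (1.51), and Cdkn1c, a cyclin-dependent kinase inhibitor (1.15). Set against the Tal1 backgrounds alone, they were 2.02 for Fbp1, 1.51 for Tspan9, 1.41 for Ddc, 0.11 for Spsb4, 1.70 for Hsd17b11 and 1.29 for Cdkn1c, and none passed the test. Spsb4 averaged 10.84 ± 0.39 (SD, n = 4) in E2A-deficient tumours and 10.93 in Tal1 transgenic tumours.

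Complete separation from the reference was rare. In 4 of 8325 genes (0.048%) all 4 E2A-deficient arrays lay above all 34 reference arrays, and each difference was under 2-fold. Cln6, mutated in a neuronal storage disease, read 10.72, 10.30, 10.24 and 10.47, against 8.95 to 10.19 in the reference (0.79 ± 0.15, adjusted p = 0.000593). Ssbp4, of a single-stranded DNA-binding family, read 11.41, 11.15, 11.11 and 11.20, against 9.51 to 11.05 (0.80 ± 0.15). Edc4, a scaffold of mRNA decapping, was between 10.96 and 11.03, against 10.02 to 10.94 (0.45 ± 0.07), and Tex264, a receptor for autophagy of the endoplasmic reticulum, between 9.74 and 9.90, against 8.84 to 9.72 (0.49 ± 0.09). The highest background mean was that of Tal1 transgenic tumours for all 4 genes, and within the array set none passed the test (0.58 for Cln6, 0.27 for Ssbp4, 0.16 for Edc4 and 0.24 for Tex264).

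Some genes of the Notch pathway were higher. Of 17 measured genes, 5 rose (Notch1, Notch3, Hes1, Nrarp and Il2ra) and 1 fell (Hey1), beside 7.75% and 12.1% of all genes, and 11 did not pass the test, among them the receptor gene Notch2 (0.34, adjusted p = 0.148). The median difference was 0.34, against -0.01 over all genes. Notch1, the receptor that commits progenitors to the T lineage, read 12.78 and 13.00 in the E2A knock out arrays and 13.44 and 13.31 in the rag E2A knock out arrays, against 8.13 to 13.20 (median 12.33) in the reference. It rose by 1.39 ± 0.42 (adjusted p = 0.0219), where the beta-catenin transgenic mean of 8.35 was the lowest. The other probe set of Notch1 differed less, by 0.82 ± 0.37 (limma, unadjusted p = 0.0367). Notch3 read 11.59, 11.26, 11.72 and 11.93 (reference median 10.54, 0.95 ± 0.26, adjusted p = 0.0124), and its other probe set differed by 0.20. LMO1 transgenic tumours had a Notch3 mean of 11.68, against 11.62 in E2A-deficient tumours.

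Of the Notch targets, Nrarp, a feedback inhibitor of the pathway, read 11.05 and 10.28 in the E2A knock out arrays and 10.75 and 10.96 in the rag E2A knock out arrays, against 8.08 to 11.19 (median 9.13) in the reference. It rose by 1.47 ± 0.29 (adjusted p = 0.000768) and 3 reference arrays exceeded the lowest E2A-deficient array, with Pokemon transgenic tumours at the same level (10.85 ± 0.48, n = 2). Il2ra, which encodes CD25, the marker of thymocytes at the stage of T-lineage commitment, read 11.56, 11.07, 10.97 and 11.45, against 7.25 to 12.28 (median 8.55), and rose by 1.83 ± 0.52 (adjusted p = 0.0148). LMO1 transgenic tumours were higher still (11.62 ± 1.02, n = 3) and Cdkn2a knock out tumours lowest (7.70 ± 0.43, n = 9). Hes1, a repressor induced by Notch, read 10.77, 10.22, 10.64 and 10.26 (reference median 9.57) and rose by 0.86 ± 0.19 (adjusted p = 0.00217). Its mean in Ikaros Plastic tumours was higher still (10.66). Dtx1 (1.23, adjusted p = 0.0767) and Lef1 (0.70, adjusted p = 0.0788) had values above the reference median in all 4 arrays without passing the test, Myc differed by -0.14 and Hey1, a related repressor, fell by 0.26 (adjusted p = 0.0121). These 4 genes were named after their values were seen.

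None of the 5 Notch genes that rose passed the test within the array set. Notch1 was 0.54 ± 0.54, Notch3 0.37 ± 0.33, Hes1 1.02 ± 0.24 (adjusted p = 0.0891), Nrarp 1.47 ± 0.37 (adjusted p = 0.126) and Il2ra 1.58 ± 0.66 above the Tal1 backgrounds. The 2 Tal1 backgrounds were unlike each other for the last 3 genes. Hes1 averaged 10.5 in E2A-deficient, 10.3 in Tal1-LMO2 double transgenic and 8.6 in Tal1 transgenic tumours. In the same order, the means were 10.8, 9.8 and 8.8 for Nrarp and 11.3, 10.6 and 8.8 for Il2ra. Without rag E2A knock out replicate 4, 2 members of the list were higher in the main comparison, and with stromal and myeloid marker levels as covariates none was. Over all 8325 genes, 388 and 14 were higher in these fits, against 645 in the main fit.

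**Figure D3:**
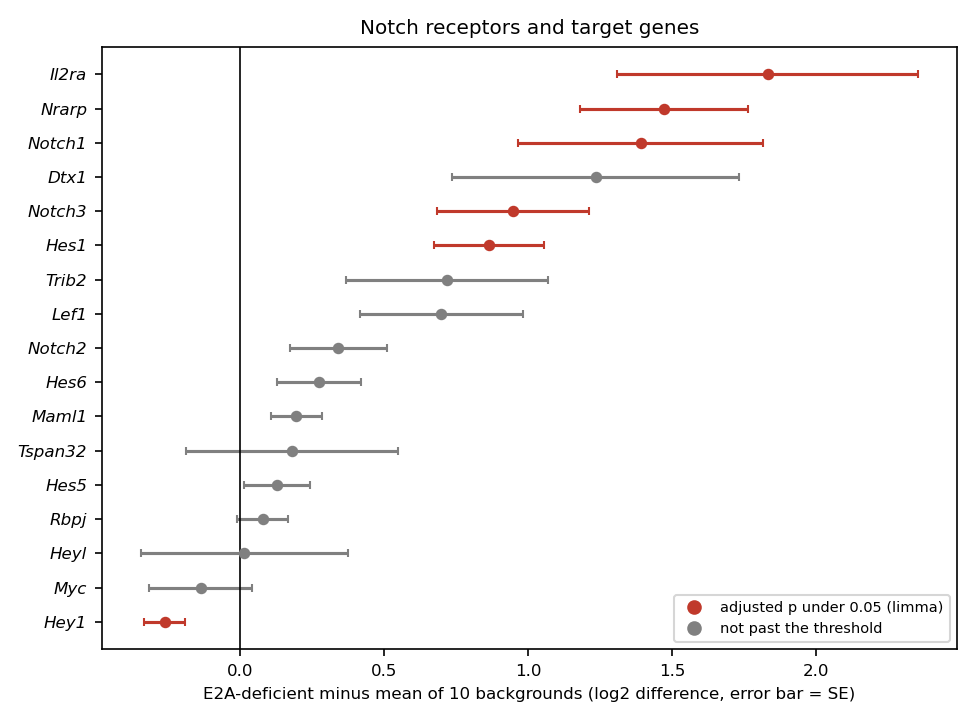
Log2 difference of E2A-deficient tumours minus the mean of the 10 background means for the 17 genes of the Notch list (points, bars show the SE). Members called by limma are in red: Il2ra, Nrarp, Notch1, Notch3 and Hes1 lie between 0.86 and 1.83, and Hey1 at -0.26.

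Promoters of 4 genes that rose are shown because E proteins and the Notch effector RBPJ bind short sequences, and because these genes stand for the 2 patterns above: H2-T3 and Ifi202b were high in E2A-deficient and Tal1 tumours, and Nrarp and Il2ra are the Notch list members with the largest differences. Each is the 250 bases before the gene's start in RefSeq on mouse build GRCm38.p6, read on the gene's own strand, with matches in capitals. The motifs searched on both strands were CANNTG, the E-box, and TGGGAA, the core that RBPJ binds. They lie at chr17:36190152-36190401 on the minus strand for H2-T3, chr1:173982845-173983094 on the minus strand for Ifi202b, chr2:25180508-25180757 on the plus strand for Nrarp and chr2:11642542-11642791 on the plus strand for Il2ra.
H2-T3: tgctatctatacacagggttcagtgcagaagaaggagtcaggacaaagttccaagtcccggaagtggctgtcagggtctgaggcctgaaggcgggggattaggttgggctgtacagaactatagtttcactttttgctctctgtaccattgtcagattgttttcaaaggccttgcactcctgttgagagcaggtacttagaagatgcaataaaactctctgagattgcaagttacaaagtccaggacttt
Ifi202b: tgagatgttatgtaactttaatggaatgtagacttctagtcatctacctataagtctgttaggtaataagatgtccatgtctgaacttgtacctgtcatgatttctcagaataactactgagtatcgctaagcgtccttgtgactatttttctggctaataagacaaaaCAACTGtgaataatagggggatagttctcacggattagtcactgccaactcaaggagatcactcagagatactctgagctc
Nrarp: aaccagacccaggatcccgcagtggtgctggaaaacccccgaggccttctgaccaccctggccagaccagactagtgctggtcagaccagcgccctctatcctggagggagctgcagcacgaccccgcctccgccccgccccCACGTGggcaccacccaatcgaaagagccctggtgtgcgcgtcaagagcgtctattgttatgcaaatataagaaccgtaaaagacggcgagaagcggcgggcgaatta
Il2ra: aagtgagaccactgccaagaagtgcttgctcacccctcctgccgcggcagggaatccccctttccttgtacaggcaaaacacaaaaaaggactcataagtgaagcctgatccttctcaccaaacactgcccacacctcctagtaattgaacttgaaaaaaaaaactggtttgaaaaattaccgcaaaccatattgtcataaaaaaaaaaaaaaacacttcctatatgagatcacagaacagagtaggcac

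Ifi202b held 1 E-box, CAACTG, and Nrarp held 1, CACGTG, and no match to CANNTG was present in the windows of H2-T3 and Il2ra. No window held TGGGAA, and no motifs overlapped. Of 32851 promoter windows of this length, 66.2% held CANNTG and 21.6% held TGGGAA. A match describes the letters only, and no binding was measured.

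Genes reported as E protein targets in thymocytes gave few calls. Of 19 measured, 2 were higher (Notch1 and Hes1) and none was lower, beside 7.75% and 12.1% of all genes. Rag1, part of the enzyme that cuts receptor genes for V(D)J joining, read 12.47 and 11.98 in the E2A knock out arrays and 12.15 and 11.89 in the rag E2A knock out arrays, against 8.14 to 13.21 (median 11.97) in the reference. Rag2 read 9.77, 8.38, 9.32 and 9.16, against a median of 9.03. Neither passed the test (adjusted p = 0.623 and 0.845), and neither did the differences of rag E2A knock out minus E2A knock out (Rag1 -0.20, adjusted p = 0.981, and Rag2 0.16, adjusted p = 0.966). Ptcra, the invariant chain of the pre-T-cell receptor, was spread over 11.39, 8.45, 9.85 and 12.23, against 7.73 to 12.15 in the reference, and rag E2A knock out replicate 4 lay above all 34 reference arrays. Xrcc4, a factor of DNA end joining, was the single called member of 8 recombination genes (0.24 ± 0.08, adjusted p = 0.0343).

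T-cell identity genes and stage genes gave few calls. Bcl11b, which fixes T-lineage commitment, read 12.13, 12.54, 12.57 and 12.44, against a reference median of 11.57, and rose by 0.64 ± 0.20 (adjusted p = 0.0259), but its level in Tal1-LMO2 double transgenic tumours was higher (12.70) and the difference within the array set was -0.16 ± 0.26. Runx1 fell by 0.38 (adjusted p = 0.0483), and its other probe sets ranged from -0.12 to 0.36. The other 17 of 19 T-lineage factors, all 20 genes of the CD3 complex and proximal signalling and all 11 genes of the double-positive stage did not pass the test. In this comparison 7.75% of all genes were called higher and 12.1% lower. Cd4 read 10.21, 10.55, 10.05 and 10.36, against a median of 11.01, and Cd8a 11.37, 10.44, 11.97 and 12.43, against 11.99 (adjusted p = 0.222 and 0.832). Among 11 genes induced by T-cell receptor signalling, none rose and 3 fell: Nr4a1, an orphan nuclear receptor (-0.63 ± 0.13, adjusted p = 0.00119), and the AP-1 genes Fos (-0.68) and Junb (-0.42). Over all genes 12.1% were lower, and the median of this list was -0.41. Without rag E2A knock out replicate 4, 1 gene of the list was lower, and likewise without Ikaros Plastic tumours, in which Fos averaged 11.86 against a reference median of 8.24. Over all 8325 genes, 484 were lower without that array and 859 without Ikaros Plastic tumours, against 1006 in the main fit. Without Ikaros Plastic tumours Fos was at -0.32 (adjusted p = 0.251) and Junb at -0.31 (adjusted p = 0.141). Within the array set Nr4a1 differed by -0.06, Fos by -0.27 and Junb by 0.25.

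Genes of growth and division were close to the reference. No gene passed the test among 23 replication genes (median difference 0.13), 20 mitosis genes (-0.10) and 20 genes of ribosome biogenesis and Myc targets (-0.05), where 7.75% and 12.1% of all genes were called higher and lower. Of 17 G1 regulators, Cdkn1c rose (9.15, 9.30, 8.37 and 10.52, against a reference median of 8.07, adjusted p = 0.00907) and Rb1, the retinoblastoma gene, fell (-0.41, adjusted p = 0.0303). In the BCL2 family, the effector of cell death Bak1 rose by 0.51 (adjusted p = 0.00731), although its other probe set gave -0.22, and Bbc3, which encodes PUMA, fell by 0.45 (adjusted p = 0.0042), with 9 other members not called. Of 20 cytokine receptor and JAK-STAT genes, Il2ra rose and Il4ra fell (-0.47, adjusted p = 0.00133), and Il4ra was 0.15 higher within the array set. Lmo2 and the Myc relative Mycn (-0.31, adjusted p = 0.00297) were lower among 6 progenitor genes. In the list of innate-like and cytotoxic genes, Fcer1g (-1.09) and Gzmk (-0.49) were lower of 10, and in the homing list the chemokine receptors Ccr2 (-0.52) and Cxcr3 (-0.44) were lower of 11. None of the genes called in these lists passed the test within the array set. Bak1 differed there by 0.17, Bbc3 by -0.23, Rb1 by -0.38 and Mycn by -0.07. The differences there were -0.38 for Fcer1g, -0.20 for Gzmk, -0.26 for Ccr2 and -0.20 for Cxcr3.

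Large falls were seen in genes of antibody-producing cells (Igkv8-30 and Jchain) and of connective tissue, fat, vessels and macrophages. Of 19 stromal, endothelial, fat and epithelial markers, 12 fell and none rose, with a median difference of -0.74, and of 19 myeloid markers 13 fell and none rose, with a median of -0.79, against 12.1% of all genes called lower. In bulk samples fewer cells of a type and less RNA per cell cannot be told apart. The collagen gene Col3a1 read 8.39 and 8.28 in the E2A knock out arrays and 9.16 and 9.61 in the rag E2A knock out arrays, against 7.85 to 12.58 (median 11.70) in the reference (-2.35 ± 0.39, adjusted p = 0.000105). Fabp4, the fatty acid carrier of fat cells, read 7.90, 7.82, 7.41 and 8.48, against a median of 11.12 (-2.79 ± 0.40, adjusted p = 1.58e-05). The macrophage complement gene C1qb read 8.08, 8.60, 9.88 and 9.90, against a median of 11.25 (-1.88 ± 0.27, adjusted p = 1.61e-05), and was higher in both rag E2A knock out arrays than in both E2A knock out arrays. The number of reference arrays below the highest E2A-deficient array was 3 for Col3a1, 4 for Fabp4 and 3 for C1qb.

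The same direction held for Car3 (-2.45), a carbonic anhydrase of fat and muscle, Lpl (-2.23), the lipoprotein lipase, and the matrix genes Bgn (-2.33), Dcn (-2.10) and Sparc (-1.92). Vcam1 (-2.15), an adhesion molecule of activated endothelium and stroma, Cxcl12 (-1.97), the stromal chemokine, and Serping1 (-2.12), the inhibitor of the C1 protease, also fell. Jchain, which links antibody chains in plasma cells, was between 6.81 and 6.88 in all 4 arrays, against 6.84 to 12.66 (median 9.51) in the reference (-2.52 ± 0.50, adjusted p = 0.00085). Its lowest background mean was that of ThPOK transgenic tumours (6.87). Within the array set Jchain differed by -1.74 ± 0.64 and did not pass the test. Other non-T-cell lists moved less: 2 of 9 B-cell markers (Cr2 and Blnk), 2 of 6 class II and dendritic markers (H2-Eb1 and Cd74) and 2 of 7 erythroid and platelet markers (Pf4 and Klf1) fell, and none rose. Over all genes 12.1% were called lower and 7.75% higher. Within the array set Cr2 differed by -0.006, Blnk by -0.35, H2-Eb1 by 0.012, Cd74 by -0.38, Pf4 by -0.64 and Klf1 by -0.32. None of these markers passed the test there.

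As a level per array, the 19 stromal markers averaged 8.47, 8.43, 9.02 and 8.41 in the E2A-deficient arrays, against 8.12 to 10.73 (median 9.50) in the reference, and the 19 myeloid markers 8.80, 8.93, 9.29 and 9.17, against 8.73 to 10.96 (median 10.01). Their summed intensity ranged from 7402 to 17096 and from 9916 to 17634 in the E2A-deficient arrays, against 6045 to 50523 and 9620 to 58171 in the reference. No intensity on the arrays is 0. Tal1-LMO2 double transgenic tumours had the lowest background means of both lists (8.24 and 8.95), the stromal one below all 4 E2A-deficient arrays and the myeloid one within their range. Within the array set, Col3a1 differed by -0.71 ± 0.49, Fabp4 by -1.58 ± 0.50 and C1qb by -0.56 ± 0.34, and none of these passed the test with the spread of 38 arrays. No marker of either list passed with that spread, and Fabp4 did in the 9 arrays alone (adjusted p = 0.0308).

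With the stromal and myeloid levels of each array as covariates, 14 genes were higher and 13 lower, and Scara3 was among those that still passed (4.10 ± 0.85, adjusted p = 0.0255), while H2-T3 (1.77, adjusted p = 0.526), Tcf3 (-0.79, adjusted p = 0.174) and Nrarp (0.75, adjusted p = 0.544) kept their direction without passing.

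**Figure D4:**
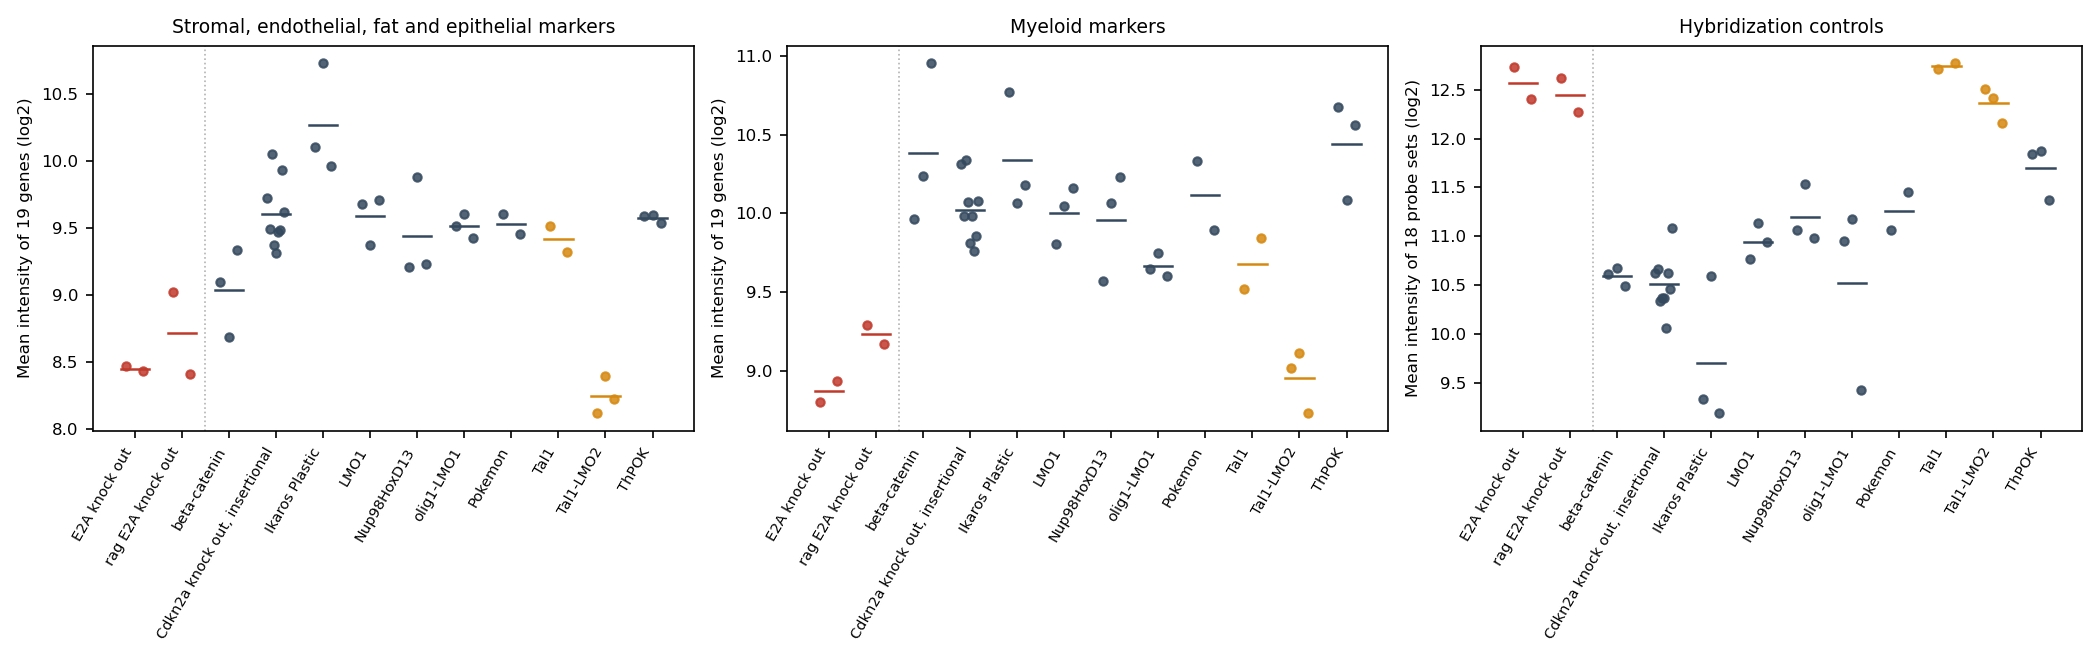
Mean log2 intensity per array of the 19 stromal markers, the 19 myeloid markers and the 18 hybridization control probe sets (points) with the group mean (line). E2A-deficient arrays are in red on the left and Tal1 backgrounds in orange. The red and orange groups hold the 9 highest control levels (12.16 to 12.77), and Tal1-LMO2 double transgenic arrays lie at the low end of both marker lists.

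In 9 genes (0.108%) all 4 E2A-deficient arrays lay below all 34 reference arrays, and the widest separation was that of Igkv8-30, an antibody light chain segment, which was named after its values were seen. It differed by -3.42 ± 0.46 (adjusted p = 8.19e-06), and by -2.83 ± 0.58 within the array set (adjusted p = 0.0285 with the spread of 38 arrays, 0.0222 in the 9 arrays), where the E2A-deficient arrays lay between 7.30 and 7.42 and the Tal1 arrays between 8.74 and 11.68. Antibody segments resemble each other, so which of them this probe set reads is uncertain. Next came Slc40a1, which encodes the iron exporter ferroportin: it read 7.42, 7.40, 7.21 and 7.28, against 7.92 to 11.10 (-1.76 ± 0.33, adjusted p = 0.00043). Within the array set Slc40a1 differed by -1.86 ± 0.42 (adjusted p = 0.0568 with the spread of 38 arrays, 0.00111 in the 9 arrays). Lifr, the receptor of leukaemia inhibitory factor, was between 6.90 and 7.14, against 7.21 to 10.49 (-1.65), and Cfp, the complement factor properdin, between 8.38 and 8.52, against 8.57 to 11.30 (-1.42). The endothelial genes Plvap (-0.93) and Esam (-0.46), the vesicle adaptor gene Ap1s2 (-0.86), the sulfotransferase gene Sult1a1 (-0.83) and the kinesin gene Kif22 (-0.29) were at most 0.05 below the nearest reference array. Within the array set Lifr differed by -0.71, Cfp by -0.68, Ap1s2 by -0.73 and Plvap by -0.51. Sult1a1 differed there by -0.45, Esam by -0.37 and Kif22 by -0.12. None of these genes passed the test there, with the spread of 38 arrays or in the 9 arrays. The other probe set of Slc40a1 gave -0.64, and those of Lifr (-0.14 and -0.04), Ap1s2 (-0.43 and 0.08) and Kif22 (-0.11 and -0.05) differed less.

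Within the array set, the 2 largest calls by adjusted p were not among the genes named so far and were picked after their values were seen. Rictor, which encodes a subunit of the kinase complex mTORC2, differed by -1.96 ± 0.12 between E2A-deficient tumours and the Tal1 backgrounds (adjusted p = 5.07e-13, and 0.00111 in the 9 arrays), and Lalba, known as a milk protein gene, by -1.60 ± 0.12 (adjusted p = 2.06e-10 and 0.00171). The E2A-deficient arrays lay below all 5 Tal1 arrays for both genes, and both were also lower against the 10 backgrounds (adjusted p = 8.96e-08 and 1.92e-07).

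The 2 E2A genotypes differed in few genes. Of 8325 genes, 2 (0.024%) passed for rag E2A knock out minus E2A knock out, with 2 arrays each and the spread of all 12 groups, beside 586 at an unadjusted p under 0.05. Syt13, a synaptotagmin, read 10.26 and 9.61 in the rag E2A knock out arrays and 8.07 and 7.65 in the E2A knock out arrays (2.07 ± 0.35, adjusted p = 0.0142), and Selenop, a secreted selenoprotein, read 12.56 and 12.46 against 10.12 and 11.37 (1.76 ± 0.33, adjusted p = 0.039). Neither passed in the 9 arrays of the set alone.

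Single arrays within the group also stood apart from the other 3. Of all genes, 11 lay at least 2 above the other 3 arrays (log2) and 4 at least 2 below them in E2A knock out replicate 1, 1 and 0 in E2A knock out replicate 2, 5 and 1 in rag E2A knock out replicate 3, and 1 and 9 in rag E2A knock out replicate 4. Genes of this kind were picked for these gaps. E2A knock out replicate 1 was high among the 4 for Ybx3, a cold-shock domain protein (12.28, others 7.79 to 7.98), and Lxn, the carboxypeptidase inhibitor latexin (11.52, others 7.55 to 7.64). For both genes it lay within the reference range (8.20 to 12.60, median 11.59, for Ybx3 and 7.97 to 11.66, median 9.96, for Lxn), and the other 3 arrays lay below all 34 reference arrays. It was also high for Mndal, as given above, and low for the adhesion receptor Cd44 (7.83, others 9.95 to 10.90). The rag E2A knock out replicate 3 array was high for the epithelial genes Epcam (12.01, others 7.74 to 8.06) and Cdh1 (11.08, others 7.56 to 8.61) and the connexin gene Gja1 (10.73, others 6.77 to 7.29), beside the highest level of the 4 in the stromal and epithelial list, which holds Epcam and Cdh1. The rag E2A knock out replicate 4 array was high for Plagl1, an imprinted zinc finger gene (11.74, others 7.26 to 7.82), and low for Igfbp4 (8.03, others 11.89 to 12.67) and the lymphocyte GTPase gene Gimap6 (7.54, others 9.87 to 11.54). The values at which these single arrays stood apart were within the reference range for Epcam, Cdh1, Plagl1 and Cd44, while those of Gja1, Igfbp4 and Gimap6 lay outside the range of the 34 reference arrays (7.12 to 10.55, 8.82 to 12.64 and 7.74 to 11.69).

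**Figure D5:**
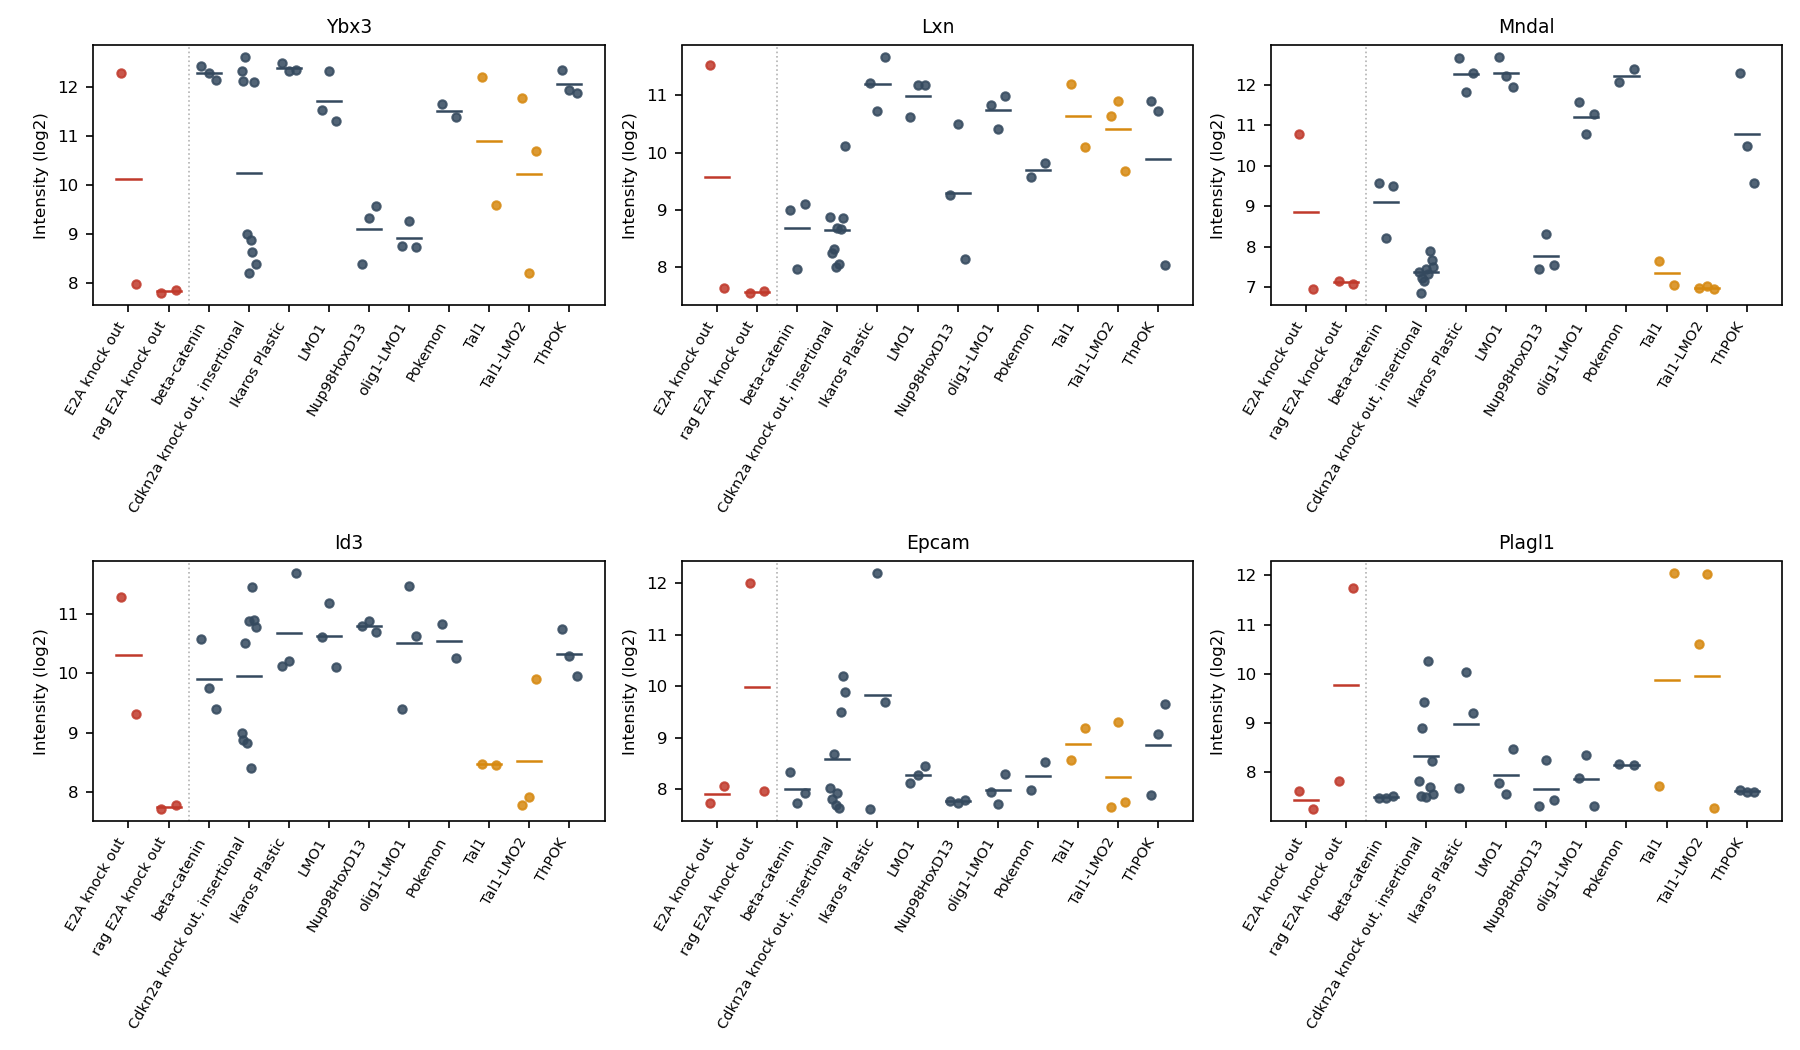
Log2 intensity of Ybx3, Lxn, Mndal, Id3, Epcam and Plagl1 on each array (points) with the group mean (line), E2A-deficient groups in red on the left and Tal1 backgrounds in orange. Single E2A-deficient arrays stand apart from the other 3, at 12.28 for Ybx3 (where the other 3 lie below all 34 reference arrays), 12.01 for Epcam and 11.74 for Plagl1.

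The genes of single chromosomes shifted little. On chromosome 1 both rag E2A knock out arrays had a median deviation from the background means of -0.11 (log2), below the reference arrays (-0.10 to 0.22), and on chromosome 3 rag E2A knock out replicate 3 was at 0.13, above them (-0.20 to 0.12). On every other chromosome the 4 arrays lay within the reference range. The median deviation from the background means over the genes of chromosome 15 was -0.12, 0.10, 0.06 and -0.07 (log2) in the 4 E2A-deficient arrays, against -0.19 to 0.17 in the reference arrays.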

How the data were processed

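The authors deposited linear intensity values, 1 per probe set and array, for 22690 probe sets of an Affymetrix mouse array hybridized with biotin cRNA, per the labels' protocols. Their background correction and normalization are not given in the sources used here. Precision is limited by how many arrays there are. Values were taken as log2 without further normalization. GEO's platform annotation gave 20393 probe sets 1 gene symbol, 691 several and 1606 none, and 20364 were updated by Entrez number to RefSeq symbols. The probe set of highest mean stood for each of 12394 genes, and the 8325 genes above their array's median on at least 4 of the 38 arrays were tested. A model of 11 groups, with both E2A genotypes as 1 group, was fitted with limma 3.58.1 in R 4.3.3 (27 residual degrees of freedom), and the contrast was the E2A-deficient mean minus the mean of the 10 background means. P-values were adjusted by Benjamini-Hochberg over all genes tested, with a threshold of 0.05. The genotypes were compared in the same way with both as separate groups. Array quality was tested by two-sided exact permutation.

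Named genes were the 12 largest called differences in each direction with all 4 arrays outside the interquartile range of the reference, up to 8 genes in each direction without overlap between the groups, up to 4 called members of each of 24 gene lists, E protein and Rag genes, and up to 3 genes of the genotype contrast. Unnamed transcripts, probe sets of several genes and rearranging receptor segments were left out, except Igkv8-30. Igkv8-30, Dtx1, Lef1, Hey1, Notch2, Myc, Cd4, Cd8a, Ptcra, H2-K1, H2-D1, B2m, Rictor, Lalba and the genes in which single arrays stood apart were chosen after their values were seen. H2-Bl and H2-T24 were also chosen in this way. The members and lists were chosen with earlier results of these data known. Array medians were 441 to 590, no 2 arrays were identical, and E2A-deficient arrays correlated at 0.954 to 0.977. In simulated data with 200 changed genes of 8325, the fit called 58% of log2 changes of 0.5, 92% of 1, 98% of 2 and 98% of -1, and 6.49% of its calls were false. The real data gave calls in 19.8% of the genes, so these shares describe the simulated setting and not the calls above. Alternatives covered the filter, probe set, scaling, weighting, blocks, covariates, array set and left-out arrays and backgrounds. Figures were drawn with Matplotlib 3.10.9.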

Additional observations from a re-analysis of the deposited data

Results flagged for a closer look

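Among the 4 E2A-deficient arrays, 12 of 123 values examined had 1 array far from the other 3 by Dixon's criterion, which chance meets in about 1 of 20 groups, and most of these genes had been picked for such a gap. E2A knock out replicate 1 stood apart at 12.28 for Ybx3, 11.52 for Lxn, 10.79 for Mndal, 8.61 for Ahnak and 8.95 for Klf1 (log2 intensity). For Ybx3 and Lxn the other 3 arrays lay below all 34 reference arrays. E2A knock out replicate 2 stood apart at 11.11 for S100a10. The rag E2A knock out replicate 3 array stood apart at 12.01 for Epcam, 10.73 for Gja1, 8.62 for Ctnna1 and 9.02 for the mean of the stromal, endothelial, fat and epithelial markers. The rag E2A knock out replicate 4 array stood apart at 11.74 for Plagl1 and 8.03 for Igfbp4.

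The genotypes differed, as rag E2A knock out minus E2A knock out, by 2.07 for Syt13 (limma adjusted p = 0.0142) and 1.76 for Selenop (adjusted p = 0.039). For Cd8a (1.30, adjusted p = 0.757) and Ctse (1.83, adjusted p = 0.329) the arrays of the 2 genotypes lay on opposite sides of the background mean, and the difference did not pass the test.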

How the results depend on the processing

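With genotype as a random block or genotype means as units, 0 genes were called in either direction (limma), against 645 higher and 1006 lower. Within the array set the counts were 3 and 11 (1 and 10 in its 9 arrays alone). Counts of higher and lower genes were 1178 and 625 with arrays centred, 409 and 596 with all 53 arrays in the fit, 53 and 94 with reference arrays weighted equally, 14 and 13 with stromal and myeloid levels as covariates, 221 and 251 for E2A knock out alone and 227 and 614 for rag E2A knock out alone. Single arrays were left out for the 4 E2A-deficient arrays and Tal1-LMO2 double transgenic replicate 2, and for no other reference array. This gave 378 to 652 higher and 484 to 977 lower. The counts were 378 higher without E2A knock out replicate 1, 608 lower without rag E2A knock out replicate 3, and 388 and 484 without rag E2A knock out replicate 4. Lower counts were 1522 without a filter, 584 with a stricter one and 629 without beta-catenin transgenic tumours, and 1052 genes were higher without both Tal1 backgrounds. Quantile normalization gave 614 and 675.

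Tcf3 kept its direction in all 37 alternatives and did not pass with a random block (-0.91, adjusted p = 0.295), genotype means (-0.91, 0.503), stromal and myeloid covariates (-0.79, 0.174), the control level as a covariate (-0.58, 0.0813) or in the 9 arrays (-1.06, 0.0892). Leaving out 1 of the arrays named above gave -0.98 to -0.80. H2-T3 kept its direction too and did not pass in the first 3 of these (3.10, 3.08 and 1.77) or within the array set (0.48). Leaving out 1 of those arrays gave 2.99 to 3.17. The genotype contrast, with 2 genes, gave 6 without a filter, 0 with all 53 arrays, without Cdkn2a knock out tumours or in the 9 arrays, and 1 without Ikaros Plastic, LMO1, Nup98HoxD13, Pokemon, Tal1 or ThPOK tumours or with the control level as a covariate.

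Reversals were listed for genes called in the main fit or in the alternative. Within the array set they were Bcl11b (-0.16), H2-Eb1 (0.012), Il4ra (0.15), Junb (0.25), Lmo1 (0.50), Mndal (0.83) and Runx1 (0.15). With stromal and myeloid covariates they were Car3 (0.27), Gzmk (0.22) and Pf4 (0.23). Ctse (1.41) and Runx1 (0.023) reversed with the probe set of largest interquartile range, and Syt13 (-0.89) in E2A knock out arrays alone. Some genes called in neither fit also changed sign within the array set, such as Id3 (0.53), Cd4 (0.47), Id1 (0.46) and Cd8a (-0.26). The cause was not tested. With the replicate number as a block the counts were 288 and 363. The numbers do not pair the samples: 5 of 25 same-numbered pairs correlated above 0.1 (-0.29 to 0.24).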
